A study of Mus musculus with 672 samples.

Results

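The methyl-CpG binding domain family was followed in lymphoid progenitors with and without Mbd3. Its members here are Mbd3 and its 5 relatives Mbd2, Mbd1, Mbd4, Mbd5 and Mbd6, named as a list and matched by Ensembl identifier. All 6 were among the 46078 genes of the count table and among the 19903 genes that passed the filter on low counts. The null group came from mice 18217 and 18219, homozygous for the deleted allele of Mbd3 (genotype Mbd3_Del/Del). The control group came from mice 18218 and 18220, homozygous for the floxed allele (genotype Mbd3_Flox/Flox). All 4 mice were 7 weeks old and of strain C57BL6/129Ola, and the controls therefore carried altered Mbd3 alleles too. The recombinase behind the deletion, the cells it acts in and the exons it removes were not stated in the labels used here. Single bone marrow cells were sorted from each mouse as lymphoid-primed multipotent progenitors (LMPP), all-lymphoid progenitors (ALP) and B cell-biased lymphoid progenitors (BLP). All came from the Lin- Sca-1+ c-Kit+ Flt3hi B220- gate, in which LMPP were IL-7Ra-, ALP IL-7Ra+ Ly6D- and BLP IL-7Ra+ Ly6D+. Of 672 cells, 561 were kept, 284 null and 277 control. The losses fell mainly on ALP, of which 42 of 84 were kept in null mouse 18219 and 40 of 84 in control mouse 18220.

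Proteins of this family share a domain related to that which recognises methylated CpG. Mbd2 binds methylated DNA and carries the NuRD complex, which remodels nucleosomes and deacetylates histones, while mammalian Mbd3 takes the same place in NuRD and binds methylated DNA poorly. A NuRD complex holds either Mbd2 or Mbd3, not both. Mbd1 is a repressor that works with histone H3K9 methylation, Mbd4 is a DNA glycosylase that repairs mismatches left by deaminated methylcytosine, and Mbd5 and Mbd6 join the polycomb deubiquitinase complex built on Bap1. The comparison asks whether any relative changed where Mbd3 was deleted, per cell and per mouse.

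Counts of kept cells were summed per mouse and population into 12 libraries of 53741264 to 137497554 gene counts, and the mouse was the replicate (n = 2 per genotype). Whether mice were littermates or processed on different days is not given, so p-values measure only the spread between these animals. Null cells had fewer counts on nuclear genes, with library medians of 1004760 to 1285440 per cell against 1586210 to 2340590 in control. Levels are given as CPM, read counts scaled to a common library size. The genes that split the gate into populations, Il7r and Ly6d, followed the sort. Il7r stood at 3.72 to 26.7 CPM in LMPP libraries and at 546 to 909 CPM in ALP and BLP libraries. Ly6d stood at 1501 to 3749 CPM in BLP libraries and at no more than 133 CPM elsewhere. Of the genes of the shared gate, Flt3 stood at 583.5 to 1019 CPM in all libraries. Kit and Ly6a were less even. Kit had 364 to 549 CPM in LMPP libraries and 61.85 to 137 CPM in ALP and BLP libraries. Ly6a had 259 to 501 CPM in LMPP libraries and 62.15 to 403 CPM in ALP and BLP libraries. The deposited table sets mouse 18217 beside 18218 and mouse 18219 beside 18220, and what that layout stands for is not stated.

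On GRCm38, Mbd3 lies on chromosome 10 at 80392539 to 80399550 (minus strand, 1987 exon bases), and Mbd6 on the same chromosome at 127281956 to 127289018 (minus strand, 4455 exon bases). Mbd2 and Mbd1 lie on chromosome 18, at 70568189 to 70626131 and at 74267605 to 74282732 (both plus strand, 3214 and 6703 exon bases). Mbd4 lies on chromosome 6 at 115840697 to 115853371 (minus strand, 5280 exon bases), and Mbd5 on chromosome 2 at 48949508 to 49325405 (plus strand, 19632 exon bases). Mbd5 shares 136 exon bases with Orc4 on the other strand, and reads there cannot be told apart without a stated strand setting. The other annotated genes inside Mbd5 (Gm13509 and Gm13510) and Mbd6 (Gm20492) share 0 exon bases with them.

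Levels per kilobase of exon put Mbd3 at the top of the family in control cells. Over the 6 control libraries the median was 50.7 CPM per kilobase for Mbd3 (24.2 to 96.3), 11.9 for Mbd2 (8.33 to 24.3), 6.86 for Mbd6 (4.61 to 8.31), 5.44 for Mbd4 (4.28 to 12.7), 4.56 for Mbd1 (2.46 to 6.61) and 1.07 for Mbd5 (0.842 to 2.11). The ranges of Mbd6, Mbd4 and Mbd1 overlapped one another, as did those of Mbd2 and Mbd4, and those of Mbd3 and Mbd2 met at their ends. Mbd5 lay below the other 5 throughout, on a length that joins the exons of all its annotated transcripts.

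Mbd3 was far lower in null libraries, and its reads there came almost entirely from 3 cells. In LMPP it stood at 0.189 and 24.7 CPM in null mice, against 48.1 and 137 CPM in control mice. In ALP it stood at 2.88 and 0.352 CPM in null mice and at 99.1 and 102.5 CPM in control mice. In BLP the values were 0.337 and 0.569 CPM in null mice and 82.4 and 191 CPM in control mice. The genotypes did not overlap in any population, and 1.08% of all genes tested were likewise lower in null in all 3. Only the null LMPP library of mouse 18219 came near the control range, and a single cell gave 98.3% of its Mbd3 reads.

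**Figure D1:**
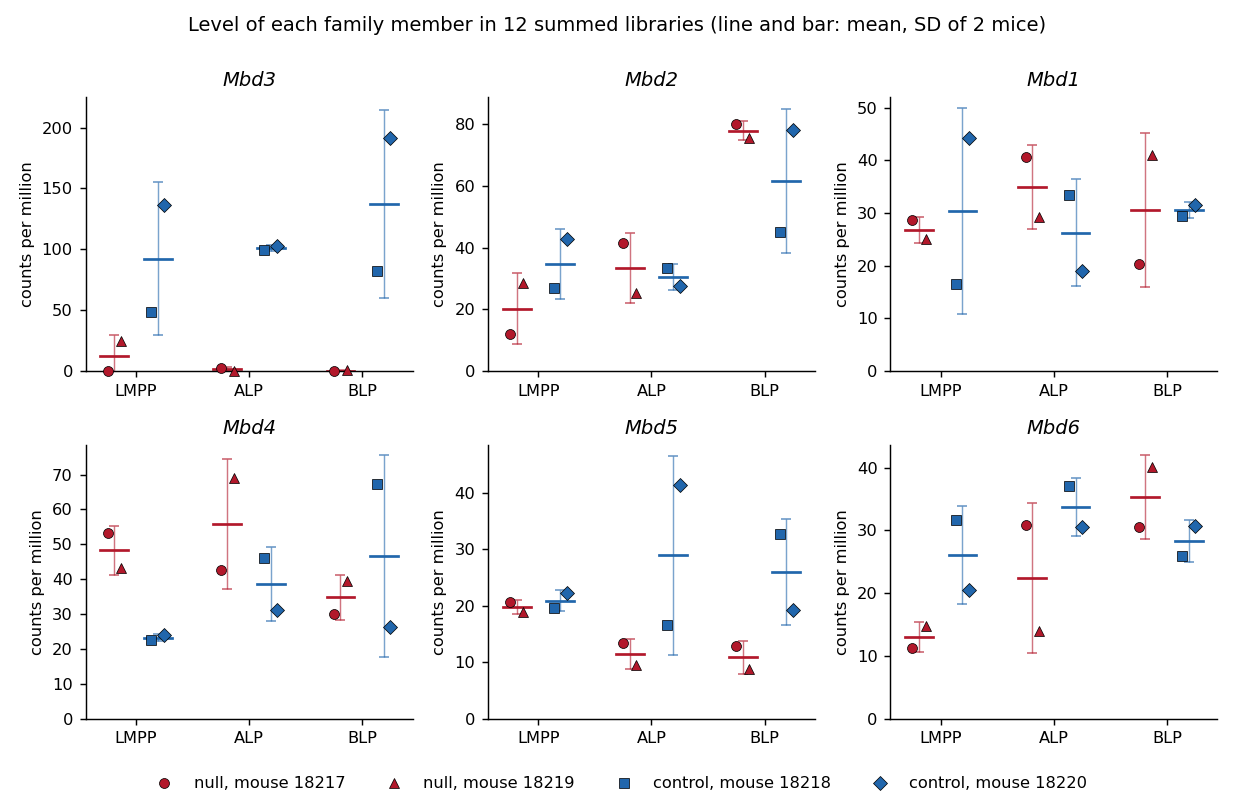
Level of each member in CPM (linear axis, from 0) in the 12 summed libraries, null left of control within each population. Points are mice, lines means and bars SD (n = 2, cut off at 0). Mbd3 separates the genotypes in all 3 populations, while the relatives lie between 8.78 and 80.1 CPM in both genotypes.

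The fitted change of Mbd3 was -2.90 ± 1.63 on the log2 scale in LMPP (adjusted p = 0.742), -5.95 ± 1.88 in ALP (adjusted p = 1) and -8.23 ± 2.11 in BLP (adjusted p = 0.431). These values are from edgeR, a count model fitted across all genes, as change ± approximate SE, and a gene was called at an adjusted p under 0.05. Over 1 summed library per mouse it was -4.49 ± 1.01 (adjusted p = 0.532, edgeR). The deleted gene itself therefore missed the threshold of 0.05 in edgeR, as did the 5 relatives, in all 4 comparisons. edgeR called 0% of all genes tested in LMPP, 0.00502% in ALP, 0.01% in BLP and 0% per mouse. At an unadjusted p under 0.05 edgeR had no member in LMPP, Mbd3 and Mbd5 in ALP and in BLP, and Mbd3 per mouse. Of all genes tested, 6.76% had such a p in LMPP, 4.5% in ALP, 8.83% in BLP and 7.04% per mouse. DESeq2 called Mbd3 in ALP (adjusted p = 0.00178), BLP (5.15e-07) and per mouse (5.43e-08), in which it called 1.36%, 4.02% and 2.83% of all genes, and it called no member in LMPP, in which it called 2.49%. With every cell thinned to equal counts, edgeR called Mbd3 in ALP, BLP and per mouse (adjusted p = 0.0343, 0.0303 and 0.00855), where it called 0.0308%, 0.0231% and 0.0144% of genes. Without the filter on low counts edgeR called it in BLP (adjusted p = 0.025), with 0.0316% of genes called. Leaving out a mouse in turn gave changes of Mbd3 in LMPP of -1.92 without 18217, -1.98 without 18220, -3.47 without 18218 and -8.94 without 18219 (edgeR). In ALP it was -8.16 without 18217, and per mouse -6.28 without 18219.

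Per cell, Mbd3 was read at low counts or not at all in nearly every null progenitor. No Mbd3 read was found in 180 null cells and in 47 control cells, and at least 10 reads in 3 null cells (1.06%) and in 162 control cells (58.5%). Between these limits lay 101 null cells with 1 to 8 reads, at a median of 0.927 CPM. The protocol counts reads without molecular identifiers, so a number of reads is not a number of molecules. The 3 null cells were LMPP cell 45 of mouse 18219 with 1409 Mbd3 reads and ALP cells 64 and 78 of mouse 18217 with 189 and 77. Their levels of 380, 91.4 and 52.7 CPM compare with a median of 151 CPM over the control cells with at least 10 reads. They held 1675 of the 1821 Mbd3 reads of all null cells (92.0%). Without them the 6 null libraries stood at 0.189 to 0.569 CPM. ALP cell 64 was also the cell with the most Mbd1 reads in its library (1288).

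**Figure D2:**
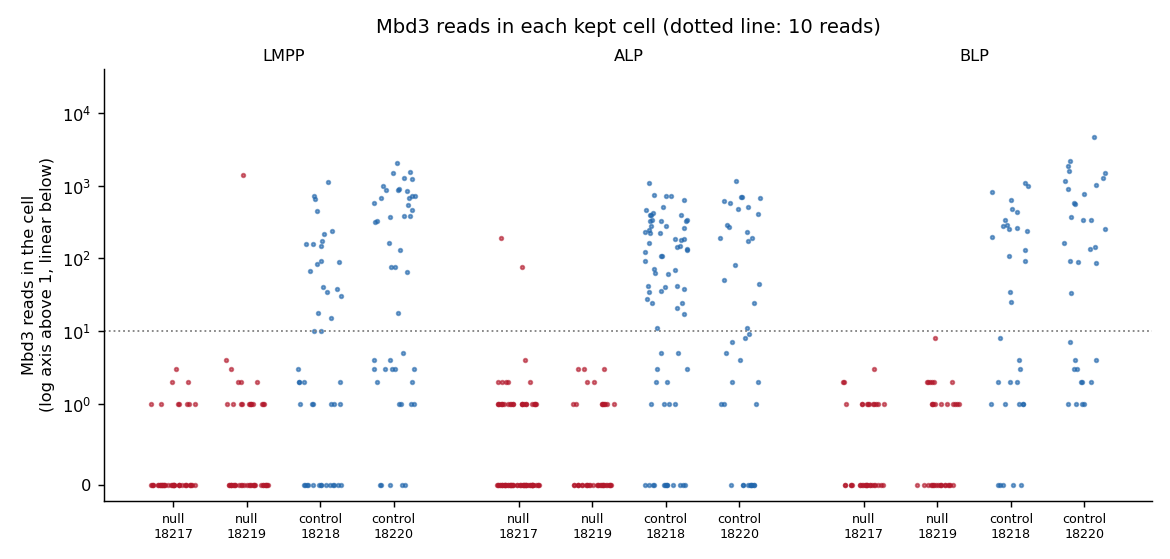
Mbd3 reads in each of the 561 kept cells by population, genotype and mouse (axis logarithmic above 1 read and linear below, dotted line at 10 reads). Points are cells. In null mice 3 cells lie above the line, at 77, 189 and 1409 reads, against 162 cells in control mice.

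Mbd2, which takes the place of Mbd3 in NuRD, showed no difference that passed the test. In LMPP its level was 12.1 and 28.4 CPM in null mice and 26.8 and 42.8 CPM in control mice. In ALP it was 41.3 and 25.3 CPM in null mice, against 33.5 and 27.5 CPM in control mice. In BLP it was 80.1 and 75.6 CPM in null mice, against 45.1 and 78.0 CPM in control mice. The genotypes overlapped in each population. The changes were -0.78 ± 0.49 on the log2 scale in LMPP, 0.13 ± 0.49 in ALP and 0.34 ± 0.49 in BLP (adjusted p = 0.762, 1 and 0.906, edgeR). In LMPP the change was -1.53 without null mouse 18219 and -0.30 without null mouse 18217. Per mouse, Mbd2 averaged 41.5 ± 0.24 CPM in null and 42.5 ± 11.3 CPM in control mice (SD, n = 2 each). Values per mouse weight each population by its gene counts, which differed between mice. ALP gave 122514230 gene counts in control mouse 18218 and 72338775 in control mouse 18220. The change per mouse was -0.04 on the log2 scale, with a 95% interval of -0.72 to 0.65.

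Mbd2 made up most of the summed level of the pair in 5 of 6 null libraries and in none of 6 control libraries. In CPM per kilobase, Mbd2 was 97.5% and 41.6% of Mbd2 plus Mbd3 in null LMPP, 89.9% and 97.8% in null ALP and 99.3% and 98.8% in null BLP. In control libraries it was 14.2% to 25.6%. The value of 41.6% belongs to the null LMPP library of mouse 18219, with its single cell of 1409 Mbd3 reads. The denominator contains Mbd3, so this share moves with the deletion by construction and is given as a description. The summed level of the pair was 3.87 to 25.1 CPM per kilobase in null libraries and 32.5 to 120.6 in control libraries.

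**Figure D3:**
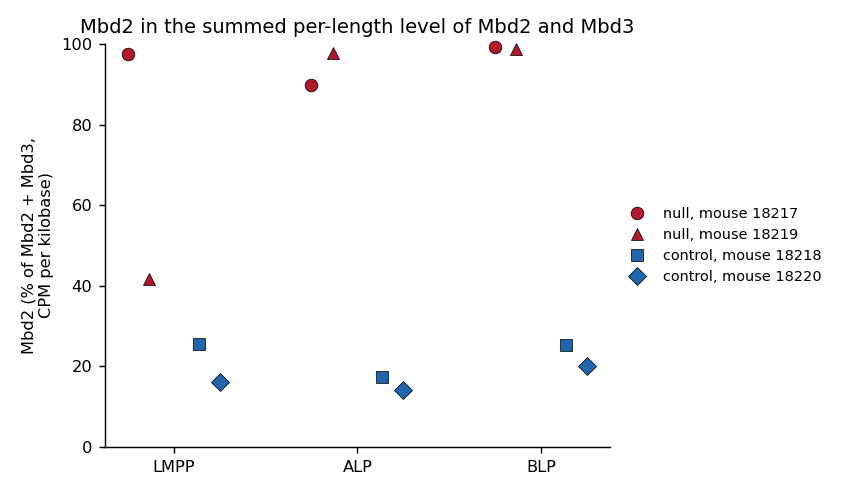
Mbd2 as a percentage of the summed Mbd2 and Mbd3 level in CPM per kilobase, per library, null left of control (points are mice). Null libraries lie between 89.9% and 99.3%, apart from LMPP of mouse 18219 at 41.6%, and control libraries between 14.2% and 25.6%.

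Mbd4, the DNA glycosylase, was higher in null LMPP without overlap between mice, but did not pass the test. Its level in LMPP was 53.2 and 43.3 CPM in null mice and 22.6 and 23.9 CPM in control mice. The change was 1.05 ± 0.48 on the log2 scale (adjusted p = 0.736, edgeR), with a 95% interval of -0.04 to 2.14. Among all genes tested, 16.2% were likewise higher in both null LMPP libraries. In ALP Mbd4 had 42.7 and 69.0 CPM in null mice and 46.1 and 31.2 CPM in control mice, and in BLP 30.1 and 39.4 CPM in null mice and 67.2 and 26.2 CPM in control mice. Both of these overlapped, and the genotype difference in BLP minus that in LMPP was -1.48 ± 0.67 (adjusted p = 0.722, edgeR).

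Mbd5, of the polycomb deubiquitinase complex, was lower in null ALP and null BLP without overlap between mice and missed the threshold in both. In ALP it had 13.3 and 9.57 CPM in null mice and 16.5 and 41.5 CPM in control mice. In BLP it had 12.9 and 8.78 CPM in null mice, against 32.7 and 19.3 CPM in control mice. In LMPP the groups overlapped, at 20.7 and 19.0 CPM in null mice and 19.6 and 22.3 CPM in control mice. The changes were -1.34 ± 0.55 on the log2 scale in ALP (unadjusted p = 0.0382, adjusted p = 1) and -1.26 ± 0.55 in BLP (unadjusted p = 0.0481, adjusted p = 0.564, edgeR). Among all genes tested, 17.0% were lower in both null ALP libraries, 17.1% in both null BLP libraries, and 3.65% in both populations. The value in ALP rested on control mouse 18220, where 1 cell gave 65.0% of the Mbd5 reads. Without that mouse the change in ALP was -0.54. It was -0.31 when the ALP libraries of both 18219 and 18220, which had lost most cells, were left out, and -0.57 with cells thinned to equal counts. In BLP, leaving out a mouse gave -1.61 to -0.84, with control mouse 18218 left out at the upper end. Within the column layout of the table, null over control in BLP was -1.27 for mouse 18217 against 18218 and -1.06 for mouse 18219 against 18220, on the log2(CPM + 1) scale. In ALP these values were -0.29 and -2.01.

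Mbd6, which joins the same complex, was lower in null LMPP without overlap and missed the threshold. It had 11.3 and 14.7 CPM in null LMPP, against 31.6 and 20.5 CPM in control LMPP. The change was -1.01 ± 0.47 on the log2 scale (adjusted p = 0.737, edgeR), and 17.8% of all genes tested were lower in both null LMPP libraries. In ALP it had 30.8 and 14.0 CPM in null mice and 37.0 and 30.5 CPM in control mice. In BLP it had 30.6 and 40.1 CPM in null mice, against 26.0 and 30.7 CPM in control mice. The groups overlapped in ALP and BLP. The genotype difference in BLP minus that in LMPP was 1.33 ± 0.66 (adjusted p = 0.729, edgeR).

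Mbd1, the repressor, had overlapping groups in every population. Its level in LMPP was 28.6 and 25.1 CPM in null mice and 16.5 and 44.3 CPM in control mice. In ALP it was 40.6 and 29.3 CPM in null mice and 33.5 and 19.1 CPM in control mice, and in BLP 20.2 and 41.0 CPM in null mice and 29.5 and 31.6 CPM in control mice. The changes were -0.18, 0.41 and 0.00 on the log2 scale, with 95% intervals between -1.44 and 1.67. In control LMPP of mouse 18220 and control BLP of mouse 18220, 1 cell gave 57.8% and 69.3% of the Mbd1 reads.

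**Figure D4:**
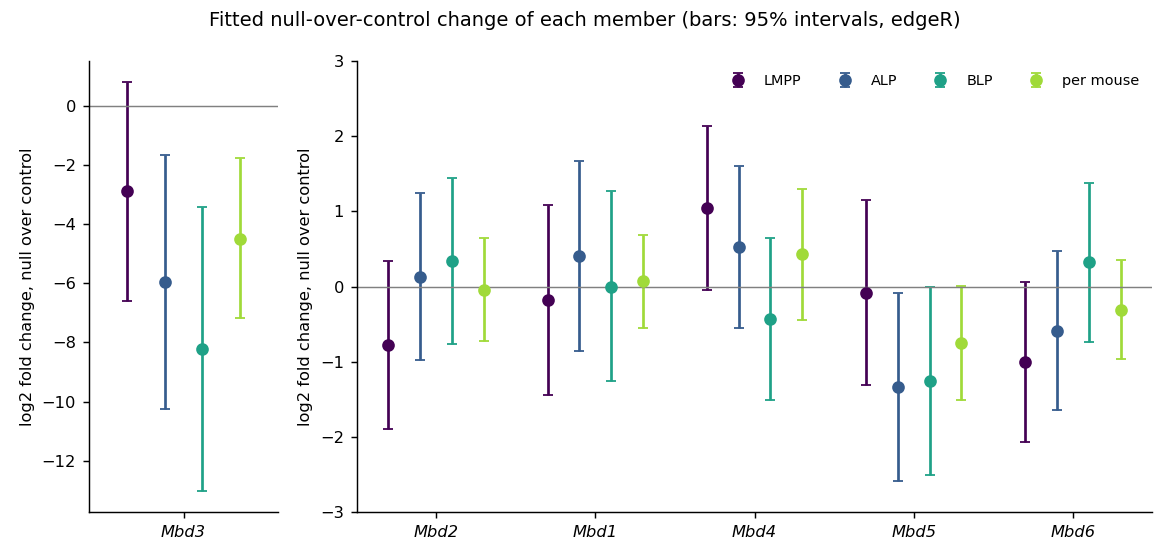
Fitted log2 change of each member, null over control, in LMPP, ALP, BLP and per mouse (points are edgeR estimates, bars 95% intervals, Mbd3 on an axis of its own). The intervals of Mbd2, Mbd1, Mbd4 and Mbd6 include 0 in all 4 comparisons, those of Mbd5 do in LMPP and per mouse, and that of Mbd3 does in LMPP.

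Counted over populations, 1 of 5 relatives was lower without overlap in null LMPP, 1 of 5 in null ALP and 1 of 5 in null BLP. In the other direction 1 of 5 was higher in LMPP, none in ALP, where 17.1% of all genes were higher, and none in BLP, where 16.3% were. These shares are near the background. Per mouse, Mbd5 averaged 14.1 ± 2.31 CPM in null and 23.7 ± 2.52 CPM in control mice, and Mbd6 23.5 ± 1.85 CPM in null and 29.2 ± 4.50 CPM in control mice. Both were lower in each null mouse than in each control mouse, as were 18.3% of genes tested. Mbd4 averaged 47.6 ± 5.53 CPM in null and 35.3 ± 12.9 CPM in control mice, and Mbd1 32.0 ± 0.686 CPM in null and 30.5 ± 4.91 CPM in control mice, with overlap. The 95% intervals per mouse were -1.51 to 0.01 for Mbd5, -0.97 to 0.35 for Mbd6, -0.44 to 1.30 for Mbd4 and -0.55 to 0.68 for Mbd1 on the log2 scale. Added together, the 5 relatives had 126 and 130.4 CPM in null LMPP, against 117 and 153.8 CPM in control LMPP. In ALP the sums were 168.7 and 147.1 CPM in null mice and 166.6 and 149.7 CPM in control mice. In BLP they were 174.0 and 204.8 CPM in null mice and 200.4 and 185.8 CPM in control mice, so the groups overlapped in each population.

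Several marker lists, all of whose genes were in the table, had summed levels that did not overlap between genotypes, and these sums were not tested. Among all single genes tested, 17.8% were lower and 16.2% higher without overlap in null LMPP. In null ALP 17.0% were lower and 17.1% higher, and in null BLP 17.1% and 16.3%. No such share was computed for sums of genes, and a sum does not show whether its genes go the same way. The summed level of 10 listed genes of the G2 and M phases was 665 to 970 CPM in null LMPP and 265 to 317 CPM in control LMPP, and 1464 to 2144 CPM in null BLP and 467 to 849 CPM in control BLP. In ALP it was 501 to 943 CPM in null and 824 to 1751 CPM in control mice, with overlap. The summed level of 8 myeloid genes was 1123 to 1551 CPM in null LMPP and 597 to 712 CPM in control LMPP. It was 836 to 946 CPM in null ALP and 219 to 446 CPM in control ALP, and 301 to 356 CPM in null BLP and 69.1 to 164 CPM in control BLP. Lower in null were 4 genes of plasma and mature B cells, at 20.4 to 20.6 CPM in null and 80.2 to 87.4 CPM in control LMPP, 87.5 to 93.5 CPM in null and 115 to 222 CPM in control ALP, and 92.2 to 130 CPM in null and 175 to 209 CPM in control BLP. The 5 gate genes summed to 1380 to 1732 CPM in null and 1822 to 1944 CPM in control LMPP, and to 3079 to 4299 CPM in null and 4688 to 5652 CPM in control BLP. They did not all go the same way. In both populations Flt3, Il7r and Ly6d were lower in null without overlap, while Kit overlapped. Ly6a overlapped in LMPP and was higher in null BLP, at 303.5 and 198 CPM against 112.6 and 87.95 CPM in control BLP. The 5 macrophage and stroma genes summed to 7.68 to 15.1 CPM in null LMPP and 0.116 to 0.138 CPM in control LMPP, and to at most 3.20 CPM in ALP and BLP of either genotype. The 12 early B genes summed to 8687 to 10360 CPM in null BLP and 7490 to 7836 CPM in control BLP. The lists of stem and megakaryocyte genes and of T and NK genes overlapped in each population. The part of these genes in the levels of Mbd4, Mbd5 and Mbd6 was not tested. Summed libraries cannot tell fewer cells with a transcript apart from less of it per cell, which the shares of cells address.

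Shares of cells were compared at an equal depth of 50000 gene counts, to which every kept cell was randomly thinned. Mbd3 was then read in 3.29% ± 1.64 of null and 46.8% ± 15.0 of control LMPP, in 3.72% ± 1.90 of null and 54.9% ± 14.0 of control ALP, and in 1.43% ± 2.02 of null and 60.8% ± 11.1 of control BLP (SD, n = 2 mice each). Without thinning, the shares of cells with a read were 36.6% of null and 83.0% of control cells. The two-sided exact permutation test over 2 against 2 mice cannot go below p = 0.333, which adjusts to 0.666 over the 18 comparisons of a member and a population. None of these shares can therefore pass the threshold.

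Among relatives, Mbd2 was read in fewer null LMPP (13.3% and 17.0% of null cells, against 29.8% and 25.5% of control cells) and in more null BLP (52.8% and 48.6% in null, against 35.3% and 45.7% in control). Mbd6 was read in 20.0% and 12.8% of null LMPP, against 38.3% and 31.9% of control LMPP. Mbd5 was read in 15.6% and 12.8% of null LMPP and in 17.0% and 27.7% of control LMPP. Mbd4 was read in more null LMPP, at 40.0% and 25.5% against 23.4% and 14.9% of control LMPP. Mbd1 was read in 38.0% and 35.7% of null ALP and in 33.8% and 27.5% of control ALP. In these 6 comparisons the mice of the genotypes did not overlap (exact permutation p = 0.333 each), and in the other 9 of the relatives they did. In LMPP 3 of 5 relatives were lower and 1 of 5 higher without overlap, in ALP none lower and 1 of 5 higher, and in BLP none lower and 1 of 5 higher. Among the 10088 tested genes read in at least 10% of cells at this depth, 20.6% were lower and 8.71% higher in null LMPP, 18.1% lower and 14.4% higher in null ALP, and 16.0% lower and 13.6% higher in null BLP. The separations of Mbd2 in LMPP and BLP also held at 200000 counts per cell, at a minimum of 10 reads without thinning, and with all cells of at least 50000 counts. At 200000 counts the groups overlapped for Mbd4 in LMPP, with a difference of 2.61 percentage points in place of 13.6, and for Mbd6 in LMPP, with -10.1 in place of -18.7. Mbd1 in ALP overlapped under each of the 3 alternatives, and Mbd5 in LMPP with all cells of at least 50000 counts. Other comparisons separated only under an alternative. Mbd1 in LMPP was lower at 200000 counts (-6.09 points) and at 10 reads (-5.86 points). Mbd6 in BLP was higher under the same alternatives (8.45 and 10.2 points), and Mbd6 in ALP was lower at 10 reads (-14.6 points). In ALP and BLP the Mbd5 shares overlapped, at 17.3% ± 4.21 of null and 22.3% ± 6.74 of control ALP and 16.9% ± 4.32 of null and 23.3% ± 8.68 of control BLP.

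**Figure D5:**
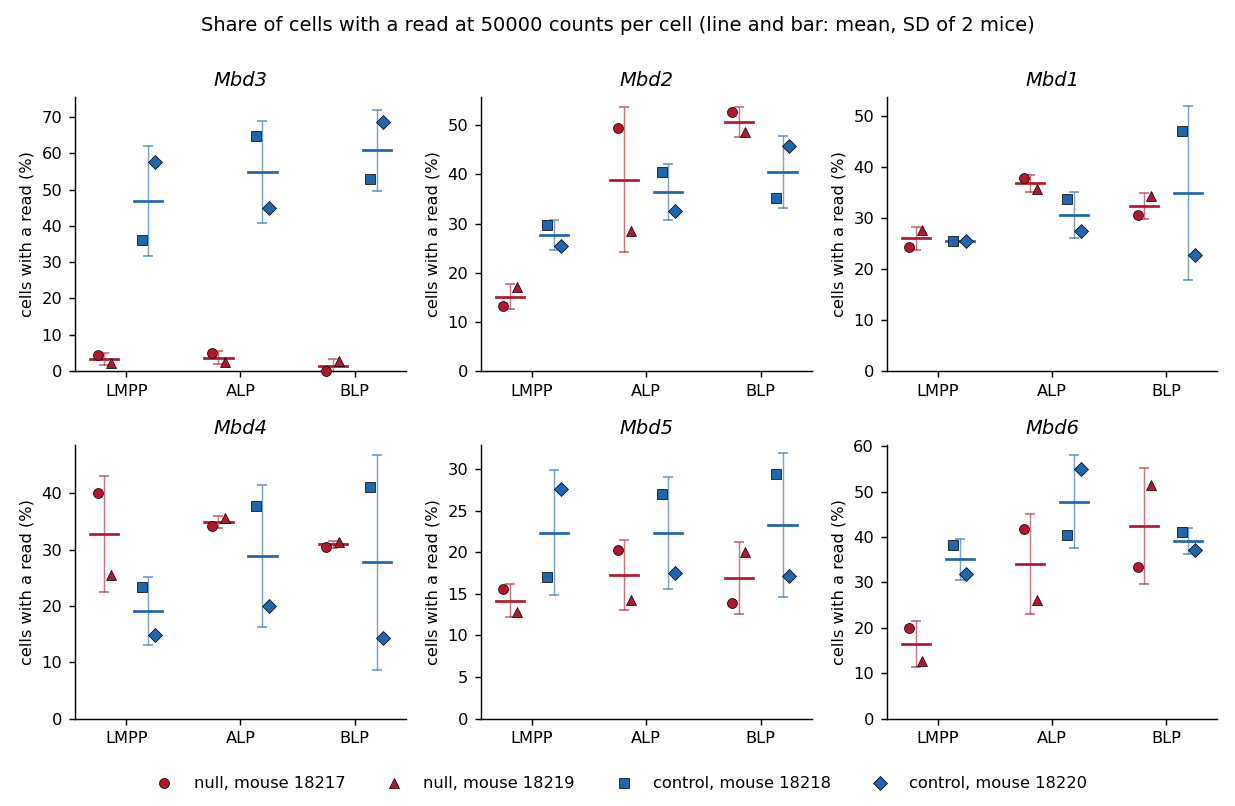
Share of cells with at least 1 read of each member after thinning every cell to 50000 counts, by population, null left of control (points are mice, lines means, bars SD, n = 2). Mbd3 lies at 0% to 5.06% in null mice and at 36.2% to 68.6% in control mice, and the relatives at 12.8% to 55.0% in both.

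At that depth a null LMPP held reads of 1.05 ± 0.124 of the 5 relatives on average and a control LMPP of 1.30 ± 0.0601. The averages were 1.62 ± 0.304 in null and 1.66 ± 0.192 in control ALP, and 1.73 ± 0.174 in null and 1.66 ± 0.403 in control BLP (SD, n = 2 mice each). Across control cells of a library, Spearman correlations of thinned Mbd3 and relative reads had medians from -0.06 for Mbd1 to 0.04 for Mbd4 over 6 libraries. These values come from sparse counts and are descriptions without a test.

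From stage to stage, Mbd2 was the member that was higher in BLP than in ALP in both genotypes without overlap. The change was 1.22 ± 0.49 on the log2 scale in null (unadjusted p = 0.0367, adjusted p = 0.763) and 1.01 ± 0.49 in control (unadjusted p = 0.0713, adjusted p = 0.676, edgeR). The value in control was 0.44 without mouse 18220, 1.51 without mouse 18218 and 0.50 with cells thinned to equal counts. Among all genes, 16.0% were higher without overlap at this step in null and 16.9% in control. The share of genes higher in both genotypes at once was not computed. No member was called between ALP and LMPP, where edgeR called 0.211% of genes in null and 0.271% in control, or between BLP and ALP, where it called 0% in null and 0.00502% in control. At an unadjusted p under 0.05 Mbd2 in null was the only member at these steps, and in that comparison 6.4% of all genes had such a p. Mbd3 itself in control cells differed by 0.13 ± 1.51 between ALP and LMPP and by 0.44 ± 1.51 between BLP and ALP. The tests of whether the genotype difference itself differed between populations called no member and 0% of all genes in each of the 3 pairs of populations. The smallest unadjusted p there was 0.0491, for Mbd3 in BLP minus LMPP (adjusted p = 0.722, edgeR). In the null LMPP library of mouse 18219, which enters that value, a single cell gave 98.3% of the Mbd3 reads.

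The genes beside Mbd3 give a check of its surroundings. Uqcr11, a subunit of respiratory complex III that starts 3447 bases away, had 105 to 162 CPM in null libraries and 102 to 168 CPM in control libraries, with changes of 0.07, -0.20 and -0.01 on the log2 scale in LMPP, ALP and BLP. Tcf3, the E protein needed for B lineage commitment, lies 9964 bases away. It had 39.0 and 78.9 CPM in null LMPP, against 115 and 98.3 CPM in control LMPP, a change of -0.86 ± 0.38 (unadjusted p = 0.0506, adjusted p = 0.736, edgeR). In ALP Tcf3 had 129 and 78.5 CPM in null mice, against 132 and 166 CPM in control mice, and in BLP 180 and 124 CPM in null mice, against 170 and 207 CPM in control mice. Tcf3 was thus lower without overlap in null LMPP and null ALP, and it overlapped in BLP. Of all genes tested, 17.8% were likewise lower in null LMPP, 17.0% in null ALP and 17.1% in null BLP. Mex3d on the other side, 4880 bases away, was a low gene. It had 0.364 and 0.258 CPM in null LMPP, against 5.80 and 1.43 CPM in control LMPP, and 0.581 and 0.152 CPM in null BLP, against 0.796 and 8.65 CPM in control BLP. It was lower in null without overlap in both, with changes of -3.53 ± 1.98 and -3.68 ± 2.00 (adjusted p = 0.742 and 0.612, edgeR). In ALP it overlapped, at 0.162 and 3.64 CPM in null mice and 0.469 and 10.2 CPM in control mice. Adamtsl5, Plk5 and Onecut3 stayed at or under 1.83 CPM in every library, and Adamtsl5 and Plk5 did not pass the filter. None of the 4 neighbours tested was called by edgeR in LMPP, ALP or BLP, where it called 0%, 0.00502% and 0.01% of all genes. The only unadjusted p under 0.05 was that of Onecut3 in ALP (0.031, adjusted p = 1, edgeR). Onecut3 had 1.27 and 0.0799 CPM there in null mice and 0.0485 and 0.0554 CPM in control mice.

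Partners of the family were read from lists. In the genotype comparisons edgeR called 0% of all genes tested in LMPP, 0.00502% in ALP, 0.01% in BLP and 0% per mouse. No gene of these lists was called, as is the case for nearly every gene. Each gene named from these and the next lists is shown in the comparison where its unadjusted p was smallest, and other populations can differ in sign. In NuRD, all 13 listed partners of Mbd2 and Mbd3 were tested, with 2 at an unadjusted p under 0.05 in LMPP, none in ALP, 1 in BLP and 2 per mouse. Such counts, here and in the next lists, stand against 6.76%, 4.5%, 8.83% and 7.04% of all genes in these comparisons. Their median changes were 0.17 in LMPP, 0.10 in ALP, 0.08 in BLP and 0.05 per mouse on the log2 scale, against -0.02, 0.00, -0.01 and 0.00 for all genes. Gatad2b, a zinc finger subunit, had 42.4 and 34.6 CPM in null LMPP, against 60.9 and 68.3 CPM in control LMPP (adjusted p = 0.699). Chd3, a remodelling ATPase, had 24.1 and 44.0 CPM in null LMPP, against 63.6 and 77.8 CPM in control LMPP (adjusted p = 0.728). Mta3, a scaffold subunit, differed per mouse by -0.59 ± 0.14 (adjusted p = 0.541, edgeR).

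Of the 9 listed partners of Mbd5 and Mbd6, all tested, 1 was at an unadjusted p under 0.05 in LMPP, none in ALP, 2 in BLP and 1 per mouse. Their median changes were -0.50 in LMPP, 0.07 in ALP, 0.09 in BLP and -0.11 per mouse. Ogt, which adds N-acetylglucosamine to proteins, had 419 and 563 CPM in null LMPP, against 674 and 710 CPM in control LMPP (adjusted p = 0.736). Bap1, the deubiquitinase, differed per mouse by 0.52 ± 0.17 (adjusted p = 0.652), and Asxl1, its cofactor, by -0.38 ± 0.21 (adjusted p = 0.789, edgeR).

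Other genes with a related domain showed the smallest unadjusted p of the lists. Of 6, 4 were tested, and 2 were at an unadjusted p under 0.05 in LMPP, none in ALP, 2 in BLP and none per mouse. Their median changes were -0.85, 0.18, 0.46 and -0.19. Baz2b, a bromodomain protein, had 101 and 159 CPM in null BLP, against 284 and 239 CPM in control BLP, a change of -1.01 ± 0.25 (unadjusted p = 0.00333, adjusted p = 0.423). Baz2b changed by -0.66 in LMPP and by 0.43 in ALP on the log2 scale. Baz2a, its relative in nucleolar silencing, had 81.7 and 110 CPM in null BLP, against 47.5 and 31.1 CPM in control BLP (adjusted p = 0.541). Setdb1, an H3K9 methyltransferase that also stands in the list of Mbd1 partners, had 32.5 and 16.8 CPM in null LMPP, against 52.2 and 49.3 CPM in control LMPP (adjusted p = 0.736, edgeR).

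The other lists were as sparse. Of 4 partners of Mbd1, 3 were tested, with medians of -0.53, -0.04, -0.57 and -0.34 in LMPP, ALP, BLP and per mouse, and 1 gene at an unadjusted p under 0.05 in LMPP and 1 in BLP. Atf7ip, which holds Setdb1 on chromatin, had 203 and 211 CPM in null BLP, against 382 and 234 CPM in control BLP (adjusted p = 0.563), and Chaf1a, a histone chaperone subunit, differed per mouse by -0.66 ± 0.51 (adjusted p = 0.879). All 7 repair partners of Mbd4 were tested, with medians of 0.22, 0.04, -0.29 and 0.02 and 1 gene at an unadjusted p under 0.05, in BLP. Tdg, the other thymine glycosylase, stayed at 0.169 and 1.36 CPM in null BLP and at 3.04 and 3.14 CPM in control BLP (adjusted p = 0.659, edgeR). The 6 other readers of methylated CpG had medians of 0.20, 0.17, 0.08 and 0.14 and none at an unadjusted p under 0.05. Among them Zbtb33 had 23.4 and 15.2 CPM in null BLP, against 6.84 and 8.79 CPM in control BLP (adjusted p = 0.589), Uhrf2 had 107 and 113 CPM in null LMPP, against 79.7 and 101 CPM in control LMPP (adjusted p = 0.849), and Uhrf1, which keeps methylation through replication, differed per mouse by 0.38 ± 0.23 (adjusted p = 0.816, edgeR).

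Across the 12 libraries the members followed different genes. By Pearson correlation of log2 CPM among 7947 genes of at least 20 CPM on average, the closest to Mbd3 were Gm9493 (0.903), Sdhaf4 (0.885) and Trappc1 (0.871), and the closest to Mbd2 were Ppp1r15b (0.948), Tet3 (0.942) and Ptprc (0.940). Those closest to Mbd4 were Sfxn1 (0.876), Paip2 (0.845) and Alkbh8 (0.836), and those closest to Mbd1 were Sel1l (0.821), Jarid2 (0.814) and Smarcd2 (0.795). For Mbd6 they were Hivep1 (0.886), Arap2 (0.872) and Snx30 (0.863). For Mbd5, itself below that level and so set against 7948 genes, they were Slc2a1 (0.878), Haghl (0.870) and Ctsz (0.868). Within the family the highest value was that of Mbd2 with Mbd6 (0.682), followed by Mbd3 with Mbd5 (0.669), and the lowest that of Mbd4 with Mbd6 (-0.428). These are descriptions over libraries that share mice, genotypes and populations, and they carry no test.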

How the data were processed

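Single cells were sorted one per well and made into full-length libraries by the protocol of Picelli and colleagues, per the labels' protocols. The deposited values are whole-number read counts per gene, which the authors made on mm10 with HTSeq 0.5.3p3 after alignment by GSNAP, per the submitters' processing notes. Neither annotation nor strand setting is stated in the sources used here. Genes took 43.2% of all entries, spike-ins 6.13%, reads on no feature 11.6%, ambiguous reads 6.08% and unaligned reads 33.0%, and all but genes stayed out of the tests.

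Symbols, positions and exon lengths came from the GENCODE annotation of GRCm38. Cells under 50000 nuclear gene counts or 1000 genes, or above 20% mitochondrial or 50% spike-in counts, were left out. Of the 111 cells left out, 52 were null and 59 control. No pair of cells had identical counts, and doublets were not called, each well having received a single sorted cell. Counts were summed into 12 libraries, filtered with filterByExpr, scaled by TMM and fitted with edgeR 4.0.16 (quasi-likelihood, R 4.3.3) over 6 groups with 6 residual degrees of freedom, or over 4 libraries, 1 per mouse, with 21047 genes and 2 residual degrees of freedom. P-values were adjusted by Benjamini and Hochberg's method over all genes tested. The approximate SE divides a change by the root of its F statistic. The coefficient of biological variation was 86.9%, and 68.2% per mouse. Shares were compared by exact permutation (scipy 1.17.1). Scripts were tested on simulated data. DESeq2 1.42.0, limma 3.58.1, other scalings and filters, and leaving out each mouse were alternatives. Alternatives for the shares were thinning to 200000 counts, which left out 1 null and 7 control cells, a minimum of 10 reads, and all cells of at least 50000 counts.

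The members, lists and tests were chosen with earlier results of these data known. Named genes were all members, 3 coding neighbours of Mbd3 on each side and the 3 genes most alike to each member. Up to 3 genes per list were named by the smallest p in any genotype comparison and are shown in that comparison. The values of some genes that this rule names are not reported here. Libraries of the 3 populations are paired by animal, since each mouse gave all 3. Deviations from group means of libraries of a mouse correlated across genes by 0.0341 to 0.0694.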

Additional observations from a re-analysis of the deposited data

Results flagged for a closer look

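The share of cells with a Mbd2 read at 50000 counts per cell was lower in both null mice than in both control mice in LMPP, and higher in both null mice than in both control mice in BLP. The genotype difference in BLP minus that in LMPP came to 22.7 percentage points. The share was higher in BLP than in LMPP by 39.5 and 31.6 points in null mice and by 5.5 and 20.2 points in control mice (two-sided exact permutation p = 0.333, the smallest that 2 mice against 2 allow), so the difference could not pass a test. In summed counts the same difference was 1.12 ± 0.69 on the log2 scale (adjusted p = 0.799, edgeR).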

How the results depend on the processing

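With 2 mice per genotype, biological variation of 86.9% and few cells per library, differences of 2-fold or more can be missed in a population. Mbd3 itself was not called by edgeR at a fitted 61.6-fold in ALP and 301-fold in BLP, with larger SE than the relatives. A value without a call is not evidence of equal levels. The count of members called was 0 in each of the 11 comparisons and became 1, always Mbd3, under DESeq2 (ALP, BLP and per mouse), under thinning to equal counts (the same 3) and without the filter on low counts (BLP). It stayed 0 under the other alternatives run that kept 2 mice in each group. Some of these called no gene at all between null and control, so their unchanged count says nothing about the members. They were limma-voom, the libraries of a population alone and the column layout as a block. Fits without a mouse leave 1 mouse in a group and are given by their changes only. No relative was called under any alternative that kept 2 mice in each group. Among these, DESeq2 called 1.36% to 4.02% of all genes between null and control. With mouse as a replicate block, Mbd2 in BLP over ALP was 1.21 in null and 0.94 in control, and the block changed no call of a member. All genes called between ALP and LMPP fell under the block to 22 in null and 32 in control, against 42 and 54 without it. Signs turned for small changes of relatives, as values on the log2 scale. Thinning gave 0.39 for Mbd5 in LMPP, -0.36 for Mbd2 and -0.10 for Mbd1 in ALP, and -0.25 for Mbd6 in BLP. Mean CPM per cell with limma gave 0.11 for Mbd1 in LMPP and -0.21 for Mbd2 in ALP. Leaving out the ALP libraries of mice 18219 and 18220 gave -0.11 for Mbd4 in ALP. For Mbd1 in BLP all cells gave -0.01, no filter -0.01, limma-voom -0.09 and the column layout as a block, an alternative added after seeing the data, -0.02. Leaving out each mouse in turn gave ranges of -0.73 to 0.69 for Mbd1 in LMPP, -0.27 to 0.44 for Mbd2 in ALP, -0.01 to 0.76 for Mbd2, -0.60 to 0.42 for Mbd1 and -0.98 to 0.40 for Mbd4 in BLP, and -0.29 to 0.25 for Mbd2 and -0.10 to 0.22 for Mbd1 per mouse. The cause was not tested. Among the alternative log2 changes, 20 turned sign, 7 passed the threshold where the reported value did not, and 313 kept sign and side. Of the alternative shares of cells, 9 moved by more than the spread between mice and 117 did not.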

Other observations

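The 111 cells left out by the filters carried few Mbd3 reads in either genotype. A Mbd3 read was found in 25 of 52 null and 31 of 59 control cells, with at most 6 reads in a null cell and 5 in a control cell. Their median depth was 41559 gene counts in null and 56635 in control cells. Among kept cells, 36.6% of null and 83.0% of control cells had a Mbd3 read. The filters moved the share of ALP with a Mbd3 read at 50000 counts per cell. With all cells of at least 50000 counts it was 11.7% in null and 50.4% in control ALP. With kept cells it was 3.72% and 54.9%.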
